A study of Danio rerio with 3 samples.

Results

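The ATP-binding cassette (ABC) transporters are a large family of membrane proteins, sorted by sequence into subfamilies that carry the letters A to H. Their genes were taken by gene symbol, as the letters abc followed by a subfamily letter and a number, and 4 genes of sterol and bile acid export (abcg5, abcg8, abcb11a and abcb11b) were left out. This gave 48 genes of the 32519 gene identifiers in the files. Subfamily A has 8 of them, B has 8, C has 14, D has 5, E has 1, F has 4, G has 7 and H has 1. Of the 48 genes, 31 reached 1 FPKM (fragments per kilobase of transcript, scaled to the mapped fragments of the library) in at least 1 library and 19 reached 5 FPKM, while 17 stayed under 1 FPKM in every library.

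The RNA came from the intestine of healthy adult zebrafish (Danio rerio) aged 6 to 9 months, kept on 14 hours of light and 10 hours of dark. There was 1 poly(A) library for each of 3 diets: the control diet, which was Tetramin, a commercial fish feed; the Cavendish diet, a granule of 50% Cavendish banana pulp and 50% Tetramin; and the Fe'i diet, a granule of 50% Fe'i banana pulp and 50% Tetramin. The daily ration was 4% of body weight for 8 weeks, and the gut was dissected on day 56 following a fast of 24 hours. Strain, sex, the number of fish per library and the stretch of intestine used were not stated in the labels.

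An ABC transporter binds and splits ATP in its nucleotide-binding domains and uses that energy to move a substrate across a membrane. In the vertebrate gut, transporters of subfamilies B, C and G on the enterocyte surface pump drugs, plant compounds and their conjugates back into the lumen or on to the blood, and so limit what is absorbed. Members of subfamily A move lipids, those of D serve peroxisomes and lysosomes, and proteins of E and F have the ATP-binding domains without a membrane part and act on ribosomes.

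Levels are given as FPKM divided by 1 scaling factor per library (the main scaling; the other 3 tried were the deposited FPKM, TPM, and TPM without exocrine pancreas and mitochondrial genes), and the value after ± is the half-width of the deposited 95% interval, which covers counting and read assignment within a library and not differences between fish. Where no scaling is named, intervals said to overlap or lie apart are those of the main scaling. With 1 library per diet no difference has a replicate check, and no p-value was computed. In a whole intestine, fewer cells of a type and less RNA per cell cannot be told apart. The median number of effective fragments behind a measured ABC gene was 244 with control feed, 262 with Cavendish and 199 with Fe'i, against 147, 180 and 115 for all 14067 measured genes, meaning those that reached 1 FPKM in some library. The enterocyte genes fabp2 (fatty acid binding), vil1 (villin of the brush border) and cdx1b (an intestinal transcription factor) were present in all 3 libraries, with fabp2 at 4946 ± 207 FPKM with control feed, 2287 ± 96.8 with Cavendish and 3045 ± 129 with Fe'i. The libraries differed in markers of other tissues: summed exocrine pancreas markers stood at 56126, 155775 and 52782 FPKM with control feed, Cavendish and Fe'i, and summed liver markers at 7848, 15630 and 31068. No exocrine pancreas or liver marker was listed at 0 in any library.

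The 48 genes summed to 584 ± 10.4 FPKM with control feed, 573 ± 10.4 with Cavendish and 583 ± 11.2 with Fe'i, with overlapping intervals. The total depended on the scaling: with TPM it was 659 ± 11.8, 537 ± 9.76 and 596 ± 11.5, and with the deposited FPKM 619 ± 11.1, 556 ± 10.1 and 563 ± 10.8, both highest with control feed. A few genes carried most of it. abcg2a, a copy of the breast cancer resistance protein gene, alone made up 25.3% of the family's FPKM with control feed, 32.1% with Cavendish and 25.2% with Fe'i. abcg2a, abcd3a, abce1 and abcb4 were the 4 highest genes in every library and together made up 63.4%, 64.8% and 60.2%. abcg2a stood above abcd3a, and abcd3a above the rest, with intervals apart in all 3 libraries. abce1 and abcb4 did not differ beyond their intervals in the control library, while abcb4 was the higher of the pair in both banana libraries. Below them came abcf1, abcf2a and abcc2, at 24.4 to 32.8 FPKM in any library. Further down, most neighbours in the control order had overlapping intervals. Among all measured genes abcg2a lay at percentile 95.6 by level in the control library, and abcc2, the seventh of the order, at percentile 82.7.

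**Figure D1:**
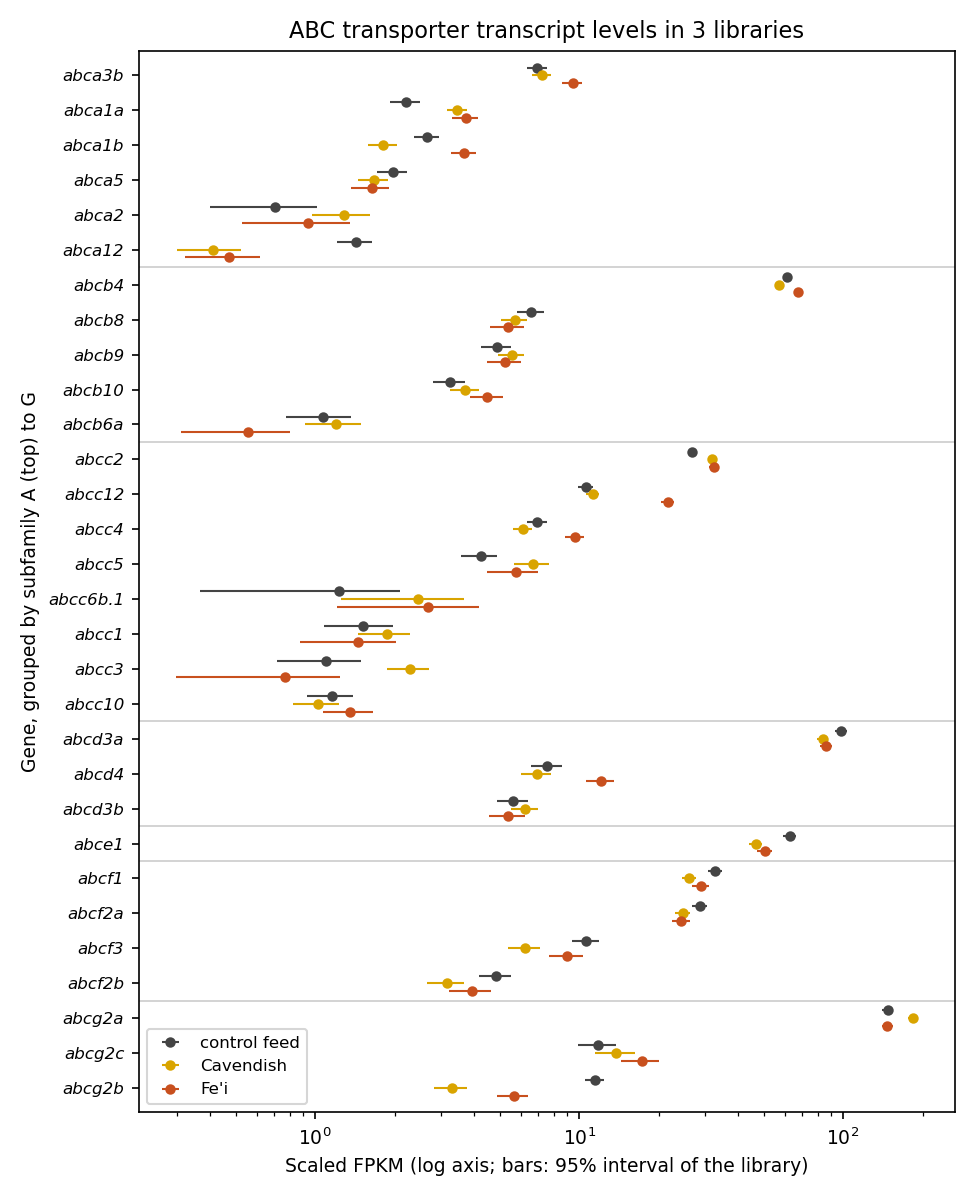
Scaled FPKM (log axis) of 30 of the 31 ABC transporter genes that reached 1 FPKM in some library, grouped by subfamily from A at the top to G, with 1 point per library and bars for the 95% interval of the library. abcg2a is highest in all 3 libraries, and the 3 points of most genes lie close together, while abcg2b and abca12 stand highest in the control library.

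By the rule used here, a call, higher or lower, was made where log2(scaled FPKM + 1) differed by at least 1, the level in the higher one reached 1 FPKM and the 95% intervals did not overlap. The first comparison sets the Cavendish library beside the control library, and with 1 library each it cannot say what the diet changed. Against the control library, 1 of 31 measured ABC genes was called in the Cavendish library, abcg2b, which was lower. Of all measured genes 7.33% were called in that comparison, 5.68% higher and 1.65% lower. For Fe'i against the control 0 of 31 were called, where 6.72% of all genes were called, 4.93% higher and 1.79% lower. Between the Fe'i and the Cavendish libraries 0 of 31 were called, where 8.72% of all genes were, 4.22% higher in Fe'i and 4.5% lower. Among the 19 ABC genes that reached 5 FPKM the counts were 1, 0 and 0, beside 8.57%, 8.22% and 10.2% of all genes at that level. The median log2 ratio of the 31 genes was 0.05 for Cavendish against control and -0.00 for Fe'i against control, beside 0.02 and 0.02 for all genes. The comparisons share libraries and are not independent of each other.

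With a smaller threshold of 1.5-fold, Cavendish against control had 1 ABC gene higher, abcc3, and 3 lower, abca12, abcf3 and abcg2b, where 17.5% of all genes were called, 12.2% higher and 5.3% lower. Fe'i against control had 2 higher, abcc12 and abcd4, and 2 lower, abca12 and abcg2b, where 14.6% were called, 9.48% higher and 5.1% lower. Fe'i against Cavendish had 4 higher, abca1b, abcc12, abcd4 and abcg2b, and 1 lower, abcc3, where 19% were called, 8.96% higher and 10% lower. With a pseudocount of 0.1 and the 2-fold threshold, abca12 and abcg2b were called lower for both banana diets against control and abcc12 higher for Fe'i, and abcc3 was called lower for Fe'i against Cavendish. abca12 reached 1 FPKM in the control library alone, so under either rule it could not be called higher against the control. The background for that rule was 9.1% higher and 2.47% lower for Cavendish against control, 6.67% and 2.81% for Fe'i against control, and 5.58% and 7.21% for Fe'i against Cavendish.

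Smaller differences were more common. The 95% intervals of 10 ABC genes lay below the control and those of 5 above it with Cavendish, where 16.9% and 20.7% of all genes did. With Fe'i 5 lay below and 10 above, where 14.4% and 16.3% did. Among those below for both diets is abca12, which entered the measured genes only through the control library. Between the banana diets 8 were higher and 3 lower with Fe'i, where 17.5% and 18.3% were. The ABC genes rest on more fragments than a median gene, as given above, and the part of that in these counts was not tested. Under all 4 scalings tried, 10 genes lay below and 2 above the control with Cavendish, where 16.9% and 12.3% of all genes did, and 5 below and 7 above with Fe'i, where 14.4% and 12.1% did. The main scaling sets both banana libraries highest against the control, so counts below it could not fall under the other 3. Only the counts above it could.

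**Figure D2:**
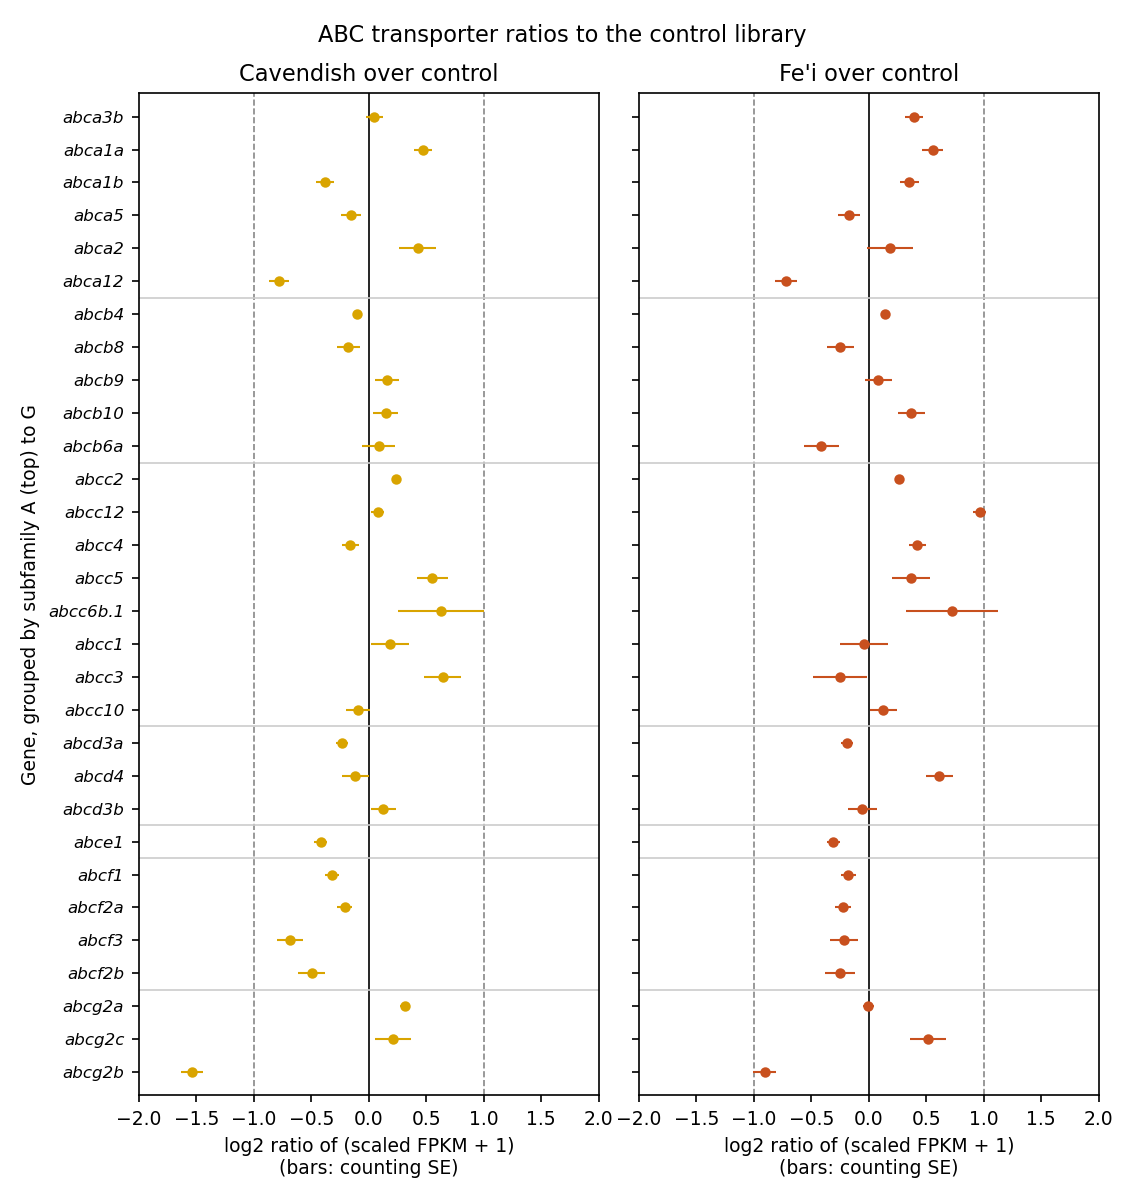
log2 ratio of scaled FPKM + 1 to the control library for 30 of the 31 measured ABC transporter genes, Cavendish on the left and Fe'i on the right, with bars for the counting SE and dashed lines at the 2-fold threshold. abcg2b in the Cavendish library is the only point past a dashed line, and abcc12 and abcg2b in the Fe'i library lie just inside.

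Over the 3 libraries, the 19 ABC genes at 5 FPKM or more had a median log2 difference between the highest and lowest library of 0.32, beside 0.44 for all 8000 genes at that level. The highest library was at least 2-fold above the lowest for 1 of the 19 genes (5.26%) and for 17.6% of all genes at that level. Over all 31 measured ABC genes the median difference was 0.42, close to the 0.45 of all 14067 measured genes. In these larger sets 1 ABC gene (3.23%) and 16.6% of all genes reached a 2-fold difference. These are descriptions with no test.

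**Figure D3:**
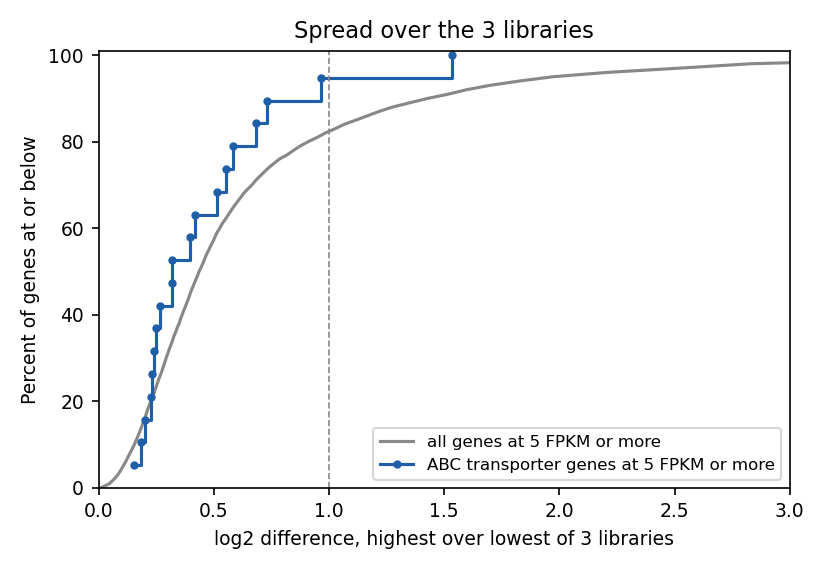
Percent of genes (vertical axis) whose log2 difference between the highest and lowest of the 3 libraries lies at or below the value on the horizontal axis, for the 19 ABC transporter genes and for all 8000 genes that reached 5 FPKM in some library. The dashed line marks a 2-fold difference, and 1 ABC gene, abcg2b, lies beyond it.

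Subfamily G holds half-transporters that pair up to work, and the abcg2 genes encode pumps for drugs, plant pigments and urate, known in mammals from the brush border of the gut. abcg2a (ENSDARG00000100075, chromosome 23, 45906137 to 45936357 in GRCz11) was at 148 ± 6.78 FPKM with control feed, 184 ± 7.69 with Cavendish and 147 ± 7.29 with Fe'i. The Cavendish library was the highest, with intervals apart from both others and a log2 ratio to the control of 0.32 (counting SE 0.04), which shrank to 0.05 under TPM scaling. The control and Fe'i intervals overlapped, but lay apart, with Fe'i lower, in 2 of the 4 scalings.

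abcg2b (ENSDARG00000079361, chromosome 1, 8673061 to 8691969) was at 11.4 ± 0.945 FPKM with control feed, 3.29 ± 0.468 with Cavendish and 5.64 ± 0.774 with Fe'i. All 3 intervals were apart, with the control highest and the Cavendish library lowest. The log2 ratio was -1.54 (counting SE 0.10) for Cavendish against control, which is 2.90-fold lower with the pseudocount of 1 and 3.47-fold lower as a plain ratio of FPKM. It was -0.91 (counting SE 0.10) for Fe'i against control, a plain ratio of 2.03-fold lower. That value lay just inside the threshold and passed it in 3 alternatives, at -1.01 with a pseudocount of 0.1, -1.03 with the deposited FPKM and -1.04 with TPM. With a pseudocount of 5 the Cavendish value was -0.99 and no longer a call. Of all measured genes, 1.65% were called lower and 5.68% higher with Cavendish, and 1.79% and 4.93% with Fe'i. Among enterocyte markers, 3 of 16 measured genes were called lower and 0 higher in the Cavendish library, and 1 lower and 1 higher with Fe'i. The higher one was cubn, at 11.5, 12.0 and 43.3 FPKM with control feed, Cavendish and Fe'i, which is also in the list of lysosome-rich enterocyte markers. Their summed level was 42269 FPKM with control feed, 27123 with Cavendish and 27387 with Fe'i. Large terms of that sum were fabp1b.1, at 11555, 5615 and 4657 FPKM, and apoa1a, at 11219, 7325 and 7079. Other markers, such as anpepb at 529, 368 and 617 FPKM, were higher with Fe'i than with control feed. The median log2 ratio of the measured markers to the control was -0.41 for Cavendish and -0.17 for Fe'i. No marker was listed at exactly 0, but alpi.1 was at 0.0332, 1.93e-79 and 0.0847 FPKM in that order. The part of these markers in the abcg2b result was not tested.

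abcg2c (chromosome 13, 5031197 to 5065539) was lowest with control feed, at 11.8 ± 1.93 FPKM with control feed, 13.8 ± 2.40 with Cavendish and 17.3 ± 2.86 with Fe'i. Its Fe'i interval lay just above that of the control, at a log2 ratio of 0.51 (counting SE 0.16), and the Cavendish interval overlapped both. The Fe'i interval was apart in 2 of the 4 scalings, and the Cavendish ratio turned below 0 under TPM scaling. abcg2d was listed at 0 in all 3 libraries. The sterol exporter genes abcg1 and abcg4b and the gene abcg4a stayed at 0 to 0.248 FPKM. Together the subfamily stood at 171 ± 7.12, 201 ± 8.07 and 170.1 ± 7.88 FPKM with control feed, Cavendish and Fe'i. The ratio of its summed measured genes for Cavendish against control was 1.18, and 0.977 with TPM.

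**Figure D4:**
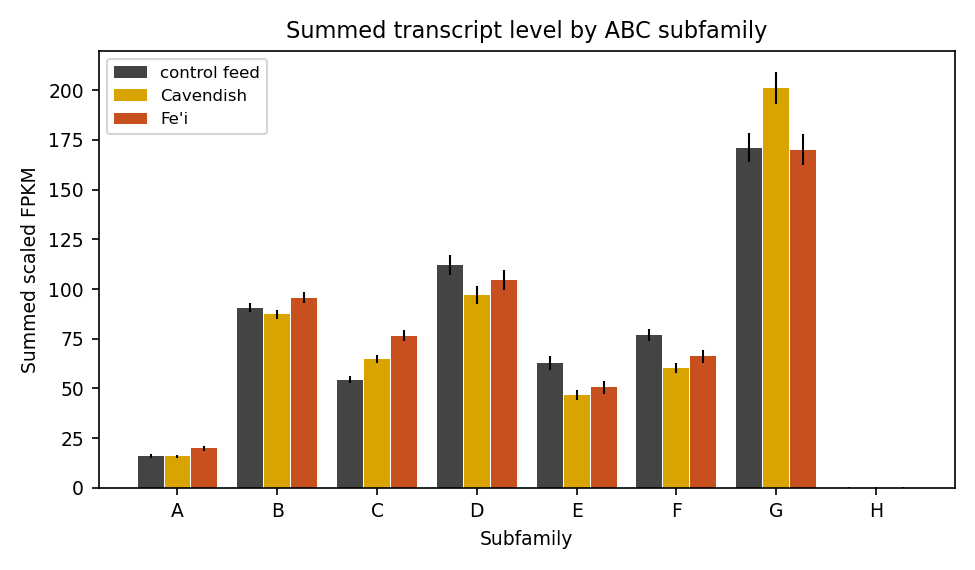
Summed scaled FPKM of each ABC subfamily (A to H) in the 3 libraries, with bars for the half-width of the 95% interval of the sum. Subfamily G is the highest in every library, C is lowest in the control library, E and F are highest in the control library, and H stays near 0.

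Subfamily B includes the multidrug transporters and the half-transporters of mitochondria and lysosomes. abcb4 (ENSDARG00000010936, chromosome 16, 28629242 to 28658341), which in zebrafish encodes a multidrug efflux pump, was at 61.2 ± 1.82 FPKM with control feed, 57.0 ± 1.63 with Cavendish and 67.4 ± 2.21 with Fe'i. The intervals were all apart, with the Cavendish library lowest and the Fe'i library highest, but the differences were small: the log2 ratios to the control were -0.10 (counting SE 0.03) and 0.14 (counting SE 0.03), and the Fe'i interval was apart from the control in the main scaling alone, with a ratio of -0.00 under TPM. abcb5, its relative on the same chromosome, was listed at 0 in the control and Cavendish libraries and was at 0.0143 ± 0.0439 FPKM in the Fe'i library.

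abcb8, of the inner mitochondrial membrane, was at 6.58 ± 0.756, 5.70 ± 0.652 and 5.38 ± 0.799 FPKM with control feed, Cavendish and Fe'i, and its 3 intervals overlapped in the main scaling. Its Cavendish interval lay below the control in 3 of the 4 scalings and its Fe'i interval in 2. abcb10, which in mammals takes part in heme synthesis in mitochondria, was at 3.24 ± 0.462, 3.70 ± 0.472 and 4.49 ± 0.636 FPKM, and its Fe'i interval lay just above the control in the main scaling alone, overlapping it in the other 3. A stretch of 634 bases of the abcb10 locus overlaps the gene urb2, and the library kit does not mark strand, so reads there cannot be told apart. abcb9, a lysosomal peptide transporter, was at 4.89 ± 0.644, 5.56 ± 0.627 and 5.25 ± 0.771 FPKM, with overlapping intervals. abcb6a, which in mammals encodes a porphyrin transporter, was at 1.07 ± 0.295, 1.2 ± 0.287 and 0.558 ± 0.248 FPKM. Its Fe'i interval lay below the control in 3 of the 4 scalings and below the Cavendish library in all 4. Against the control, 5.68% of all measured genes were called higher and 1.65% lower with Cavendish, and 4.93% and 1.79% with Fe'i. Of 21 measured partner genes in heme and iron-sulfur synthesis, 1 was called higher and 0 lower with Cavendish (median -0.05), and 1 higher and 1 lower with Fe'i (median -0.09). The lower gene was cpox, of heme synthesis, at 30.3 FPKM with control feed and 13.9 with Fe'i. The higher gene for both diets was alas2, which is also in the list of erythrocyte markers. It was at 0.975 FPKM with control feed, 3.17 with Cavendish and 3.07 with Fe'i.

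Subfamily C is the largest and holds the multidrug resistance proteins, which export conjugates with glutathione, glucuronate or sulfate, and the sulfonylurea receptors of potassium channels. abcc2 (ENSDARG00000014031, chromosome 13, 681628 to 711576), the conjugate pump of the apical membrane in mammals, was its highest member, at 26.8 ± 1.09 FPKM with control feed, 31.9 ± 1.1 with Cavendish and 32.5 ± 1.39 with Fe'i. Both banana libraries lay above the control and overlapped each other, at log2 ratios of 0.24 and 0.27 (counting SE 0.04 for both). The Cavendish ratio turned to -0.02 under TPM scaling, while the Fe'i ratio stayed above 0 in all 4 scalings.

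abcc12 (ENSDARG00000013050, chromosome 7, 38158604 to 38183331) was at 10.6 ± 0.695 FPKM with control feed, 11.2 ± 0.660 with Cavendish and 21.6 ± 1.15 with Fe'i. The Fe'i library stood apart from the other two, which overlapped, and the Cavendish ratio of 0.08 to the control turned to -0.17 under TPM. The Fe'i log2 ratio to the control was 0.96 (counting SE 0.06), a plain ratio of 2.04-fold, just under the 2-fold threshold with the pseudocount of 1. It passed with a pseudocount of 0.1, at 1.02, and against the Cavendish library with TPM, at 1.00. abcc4, which in mammals exports cyclic nucleotides and prostaglandins, was at 6.95 ± 0.598, 6.11 ± 0.519 and 9.66 ± 0.817 FPKM, with the Fe'i library apart from the others. The Cavendish interval overlapped the control in the main scaling and lay below it in the other 3. In the Fe'i library 28 of 30 liver markers were called higher and 1 lower against the control, 12 of 16 measured markers of lysosome-rich enterocytes higher and 0 lower, and 10 of 11 measured egg and germ cell markers higher and 0 lower. Of all measured genes 4.93% were higher and 1.79% lower there. Markers of lysosome-rich enterocytes summed to 15598, 12171 and 32384 FPKM with control feed, Cavendish and Fe'i. Most of each sum came from the single gene fabp6, at 10271, 7457 and 17303 FPKM. Egg and germ cell markers summed to 14.2, 10.6 and 84.1, with dazl, figla, gdf9 and nanos3 listed at 0 in the Cavendish library. Of the measured ones, buc, h1m, zar1, zp2.1, zp2.2, zp2.3, zp2.5 and zp3a.2 reached 1 FPKM in the Fe'i library alone. They entered the measured genes only through that library and could not be called lower there, so their count largely follows from the filter. The part of these tissues in the abcc12, abcc4 and other Fe'i values was not tested.

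abcc5, which in mammals exports nucleotide analogs, was at 4.23 ± 0.667, 6.68 ± 1.01 and 5.75 ± 1.25 FPKM, and its Cavendish interval lay just above the control in 3 of the 4 scalings. abcc3, a basolateral conjugate pump in mammals, was at 1.1 ± 0.387 FPKM with control feed, 2.29 ± 0.419 with Cavendish and 0.770 ± 0.473 with Fe'i. The Cavendish library was the highest, with its interval apart from both others, and with a pseudocount of 0.1 abcc3 was called lower in the Fe'i than in the Cavendish library. abcc1 (1.45 to 1.87 FPKM) and abcc10 (1.03 to 1.36 FPKM) had overlapping intervals in all libraries. abcc6b.1 is listed in 2 rows that were summed, next to abcc1 with a gap of 555 bases and with the related abcc6b.2 beyond it, so its 1.23 ± 0.863, 2.45 ± 1.2 and 2.68 ± 1.48 FPKM are uncertain.

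The other 6 members of subfamily C stayed under 1 FPKM. abcc8b, the lowest by mean level, was at 0.0121 ± 0.0463, 0.0305 ± 0.0474 and 0.0325 ± 0.0678 FPKM with control feed, Cavendish and Fe'i. abcc6a, abcc6b.2 and abcc13 stayed at 0.00812 to 0.122 FPKM. abcc9, the sulfonylurea receptor of smooth muscle and heart, was at 0.170 ± 0.0991 FPKM with control feed, 0.712 ± 0.175 with Cavendish and 0.155 ± 0.118 with Fe'i, so the Cavendish library lay apart at a low level. Calls over all measured genes were 5.68% higher and 1.65% lower with Cavendish, and 6.72% in either direction with Fe'i. Smooth muscle and fibroblast markers were called higher for 9 of 16 measured genes and lower for 0 in the Cavendish library and for 0 in either direction in the Fe'i library. Their sum was 379.6, 1239.6 and 485 FPKM with control feed, Cavendish and Fe'i, and none was listed at 0. Most of each sum came from acta2, at 160, 521 and 210 FPKM, and tagln, at 169, 534 and 218. The markers lum and cnn1a, under 1 FPKM in every library, were lower with Cavendish than with control feed. The part of these markers in the abcc9 values was not tested. abcc8, the receptor of pancreatic beta cells, was at 0.474 ± 0.174, 0.334 ± 0.141 and 0.289 ± 0.184 FPKM, with overlapping intervals. As a whole the subfamily summed to 54.4 ± 1.92, 64.8 ± 2.2 and 76.6 ± 2.91 FPKM. Of its 8 measured genes 6 had a log2 ratio above 0 in each banana library, with 5 for Cavendish under deposited FPKM and 4 under TPM. They were not the same 6: abcc4 and abcc10 were below 0 with Cavendish, and abcc1 and abcc3 with Fe'i. Over all 14067 measured genes the ratio was above 0 for 7344 (Cavendish) and 7263 (Fe'i). The ratio of the summed measured genes of the subfamily to the control was 1.18 for Cavendish, 0.983 with TPM, and 1.41 for Fe'i, 1.28 with TPM.

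Subfamilies E and F lack membrane parts. abce1 splits ribosomes after translation ends, and the abcf proteins bind ribosomes and initiation factors. abce1 (ENSDARG00000007216, chromosome 23, 43695036 to 43718067) was at 62.8 ± 3.47 FPKM with control feed, 46.8 ± 2.68 with Cavendish and 50.6 ± 3.23 with Fe'i. Both banana libraries lay below the control with intervals apart, at log2 ratios of -0.42 and -0.31 (counting SE 0.06 for both). They overlapped each other in the main scaling and lay apart, with Fe'i higher, in 2 of the 4.

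abcf1, which takes part in translation initiation, was at 32.8 ± 2.02, 26.1 ± 1.67 and 28.9 ± 2.14 FPKM, and abcf2a at 28.7 ± 1.88, 24.7 ± 1.67 and 24.4 ± 1.95. abcf3, related to a yeast protein that activates the amino acid sensor kinase Gcn2, was at 10.7 ± 1.23 FPKM with control feed, 6.25 ± 0.874 with Cavendish and 9.01 ± 1.32 with Fe'i. Its Cavendish log2 ratio of -0.68 (counting SE 0.12) was the lowest of the subfamily. The Fe'i interval overlapped the control in the main scaling and lay below it in 2 of the 4. abcf2b was the lowest in level, at 4.85 ± 0.663, 3.15 ± 0.498 and 3.92 ± 0.699 FPKM. All 5 genes of E and F were highest in the control library, with log2 ratios to it below 0 in all 4 scalings for both diets. In the main scaling the ratio was below 0 for 6675 (Cavendish) and 6773 (Fe'i) of all 14067 measured genes. The other 3 scalings lower the banana levels against the control, so a ratio below 0 had to stay below 0 in them. None of the 5 genes was called by the 2-fold rule. For Cavendish all 5 intervals lay below the control, where 16.9% of all genes did. For Fe'i those of abce1 and abcf2a did in the main scaling, where 14.4% of all genes did, and that of abcf1 did in 3 of the 4 scalings. Among 20 measured partner genes of translation and ribosome recycling, 0 were called in either banana library, where 7.33% (Cavendish) and 6.72% (Fe'i) of all genes were. The medians of the partner genes were -0.01 for Cavendish and 0.05 for Fe'i.

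Subfamily D carries fatty acids into peroxisomes, where very long and branched chains are shortened, apart from abcd4, which serves the release of vitamin B12 from lysosomes in mammals. abcd3a (ENSDARG00000104085, chromosome 24, 31310640 to 31332087), a copy of the gene for the most abundant peroxisomal membrane transporter of mammals, was at 98.4 ± 4.97 FPKM with control feed, 83.6 ± 4.23 with Cavendish and 86.3 ± 4.75 with Fe'i. The control library was the highest, with its interval just apart from both banana libraries, at log2 ratios of -0.23 and -0.19 (counting SE 0.05 for both). abcd3b was at 5.63 ± 0.743, 6.25 ± 0.720 and 5.38 ± 0.834 FPKM, with overlapping intervals.

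abcd4 (ENSDARG00000061770, chromosome 24, 35911020 to 35930390) was at 7.57 ± 1.01 FPKM with control feed, 6.91 ± 0.906 with Cavendish and 12.1 ± 1.49 with Fe'i. The Fe'i library stood apart from the other two, at a log2 ratio to the control of 0.61 (counting SE 0.12). Most of the measured markers of lysosome-rich enterocytes, of liver and of egg and germ cells given above were also higher there. Their part in the abcd4 value was not tested. abcd2, a gene of very long chain fatty acid transport, stayed at 0.107 to 0.174 FPKM. The share of all measured genes called was 5.68% higher and 1.65% lower with Cavendish, and 4.93% and 1.79% with Fe'i. Of 25 peroxisomal partner genes, 0 were called higher and 1 lower with Cavendish (median -0.16), and 0 with Fe'i (median 0.01). The lower gene was acsl1b, which encodes a fatty acid activating enzyme, at 16.3 FPKM with control feed, 5.49 with Cavendish and 10.0 with Fe'i.

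Subfamily A genes were low. abca3b, a copy of the gene that in mammals loads lung surfactant lipid into lamellar bodies, was the highest, at 6.95 ± 0.607 FPKM with control feed, 7.22 ± 0.582 with Cavendish and 9.45 ± 0.825 with Fe'i, with the Fe'i library alone apart. ABCA1 in mammals hands cell cholesterol to lipid-poor apolipoprotein. Its copies lay on opposite sides of the control with Cavendish and both above it with Fe'i. Neither copy was called against the control by the 2-fold or the 1.5-fold rule. abca1a (chromosome 1, 52560549 to 52628407) was at 2.21 ± 0.283, 3.45 ± 0.307 and 3.72 ± 0.418 FPKM, higher in both banana libraries with intervals apart from the control. abca1b (chromosome 14, 6423973 to 6519076) was at 2.66 ± 0.294, 1.81 ± 0.224 and 3.68 ± 0.402 FPKM, with all 3 intervals apart, the Cavendish library lowest and the Fe'i library highest. Over all measured genes, 5.68% were called higher and 1.65% lower with Cavendish, and 4.93% and 1.79% with Fe'i. Of 18 partner genes in cholesterol efflux and high density lipoprotein, 6 were called higher and 2 lower with Cavendish (median 0.20), and 4 higher and 2 lower with Fe'i (median 0.34). The lower pair was apoa4a and apoeb, apolipoprotein genes, for both diets. apoa4a was at 709 FPKM with control feed, 106 with Cavendish and 108 with Fe'i. The higher genes included apoa2, an apolipoprotein of high density lipoprotein, and cetp, which in humans exchanges cholesterol esters between lipoproteins. Summed liver markers were higher in the same libraries, but apoa2 is itself one of these markers. It was at 2271 FPKM with control feed, 5271 with Cavendish and 9358 with Fe'i. The part of liver tissue in these values was not tested.

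abca12, which in mammals carries lipid for the barrier of the skin, was at 1.43 ± 0.221 FPKM with control feed, 0.411 ± 0.111 with Cavendish and 0.471 ± 0.149 with Fe'i. Both banana libraries lay below the control, by 3.47-fold and 3.02-fold as plain ratios, and the pseudocount of 1 brings these to 1.72-fold and 1.65-fold. With a pseudocount of 0.1 it was called lower in both. It reached 1 FPKM in the control library alone, so it entered the measured genes only through that library. abca5 (1.63 to 1.97 FPKM) and abca2 (0.705 to 1.29 FPKM) had overlapping intervals in all libraries. The genes abca4a and abca4b, copies of a photoreceptor gene, were at 0 to 0.0149 FPKM. abch1, of a subfamily that fish have and mammals lack, was at 0.0577 ± 0.111, 0.138 ± 0.125 and 0.159 ± 0.176 FPKM.

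Several members are paired copies from zebrafish gene duplication, and the pairs differed in how evenly their copies were used. abcd3a was 17.5, 13.4 and 16.0 times the level of abcd3b with control feed, Cavendish and Fe'i. abcf2a was 5.91, 7.83 and 6.22 times the level of abcf2b. abcb6a was 2.92 and 5.47 times abcb6b in the control and Cavendish libraries and overlapped it in the Fe'i library. These ratios rest on few fragments, as abcb6b was at 0.367 ± 0.204, 0.219 ± 0.146 and 0.571 ± 0.297 FPKM with control feed, Cavendish and Fe'i. In the abcg2 group the spread was wider: abcg2a was 12.9 times abcg2b with control feed, 55.9 times with Cavendish and 26.1 times with Fe'i. Against abcg2c it was 12.5, 13.3 and 8.51 times higher. abcg2b and abcg2c overlapped in the control library, at a ratio of 1.03 of abcg2c to abcg2b, and were 4.20-fold and 3.06-fold apart in the Cavendish and Fe'i libraries. abca1a and abca1b overlapped in the control and Fe'i libraries, and abca1a was 1.90-fold above abca1b in the Cavendish library. Copies that are close in sequence can share reads, which makes such ratios uncertain.

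**Figure D5:**
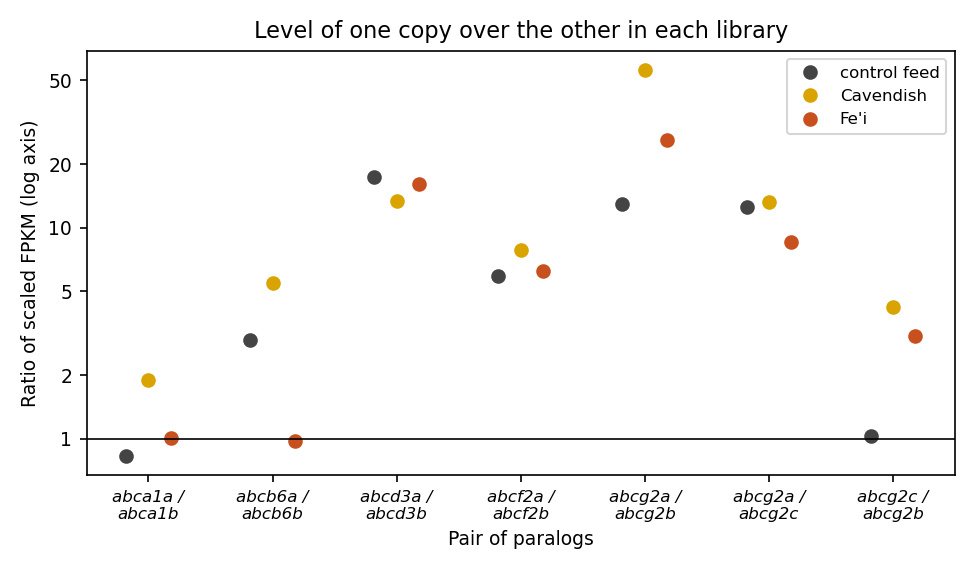
Ratio of scaled FPKM of one paralog over the other (log axis) for 7 pairs, with 1 point per library and a line at 1. The ratio of abcg2a to abcg2b is 12.9 with control feed and 55.9 with Cavendish, while those of abcd3a to abcd3b and abcf2a to abcf2b stay within narrow bands.

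Lists of genes that act with the family were counted by the 2-fold rule. By that rule 5.68% of all measured genes were higher and 1.65% lower with Cavendish, and 4.93% and 1.79% with Fe'i. Among 31 measured regulators of ABC genes, 1 was called higher in the Cavendish library, srebf2, the activator of cholesterol synthesis genes, and 2 in the Fe'i library, tfeb, a regulator of lysosome genes, and nr1h5, a nuclear receptor; 0 were called lower in either. tfeb was at 10.2 ± 1.33, 5.51 ± 0.827 and 22.2 ± 2.23 FPKM with control feed, Cavendish and Fe'i. Among 20 measured solute carriers for drugs and organic ions, 0 were called in the Cavendish library (median -0.03), and 2 higher and 0 lower with Fe'i (median 0.24). These were slc22a2, an organic cation carrier in mammals, at 3.50 ± 0.531, 6.26 ± 0.651 and 17.0 ± 1.35 FPKM, and slco1d1, of the organic anion carrier family, at 8.43 ± 0.867, 11.3 ± 0.963 and 24.8 ± 1.87. Of 16 genes of the peptide loading complex 0 were called in either banana library (medians -0.08 and -0.12). Of the ABC genes that the symbol rule missed or left out, 8 in all, 1 was called higher in the Cavendish library (abcb11b) and 1 higher and 1 lower with Fe'i (abcb11b and abcg5). The chloride channel gene cftr was at 2.08 ± 0.309, 2.58 ± 0.317 and 1.74 ± 0.322 FPKM.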

How the data were processed

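Poly(A) RNA was sequenced in paired reads of 150 bases, 1 library per diet, per the labels. Per the submitters' processing notes, the tools were FastQC 0.11.5 and TopHat2 2.1.0 and the genome build GRCz11. The authors deposited FPKM per gene from Cufflinks, with a 95% interval and a status, per the file headers; the Cufflinks version and options were not stated. Rows of 1 gene identifier were summed (117 identifiers in all, 1 ABC gene), and the 9 rows per library with a status other than OK could not give a call. Read totals are not known, so depth was read from the intervals as the squared ratio of FPKM to SD, taking the interval as 2 SD on each side.

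Here each library was divided by a median-of-ratios factor, taken over genes that reached 1 FPKM in every library (1.06, 0.969 and 0.965 for control, Cavendish and Fe'i), with Python 3.11.15, numpy 2.4.6 and pandas 2.3.3. Fold changes are on the log2(FPKM + 1) scale, which understates the change of low genes. Members, 8 gene lists, 13 marker lists and alternatives were chosen with earlier results of these data known. The rule for naming took every called member, every member at 5 FPKM or more and the highest and lowest of each subfamily. The remaining members, abcb11b, alas2 and some genes of the marker lists were named after their values were seen. The values of 2 members are not reported here by name; they are kept in counts and sums. Marker lists without a value in the text are enteroendocrine, macrophage, lymphocyte, neutrophil, goblet, erythrocyte and best4+ genes, whose median log2 ratios for Cavendish and Fe'i against control were 0.55 and 0.08, 0.04 and -0.50, -0.20 and -0.46, 0.74 and 0.30, 0.01 and -0.31, 1.19 and 1.57, and 0.12 and -0.17 in that order.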

Additional observations from a re-analysis of the deposited data

Results flagged for a closer look

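The 2 ABC genes below had the Cavendish library on one side of the control and the Fe'i library on the other, with intervals apart on both sides; among all measured genes 3.38% did so. abca1b had log2 ratios to the control of -0.38 for Cavendish and 0.35 for Fe'i. abcb4 had -0.10 for Cavendish and 0.14 for Fe'i, and the second turned to -0.00 under TPM scaling. With 1 library per diet the differences were not tested.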

How the results depend on the processing

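Of 48 recomputed counts of called genes 34 kept within 1.5 times the main count. Every main count but the 1 lower for Cavendish against control was 0, and a count of 0 was kept only where it was 0 again. The 1.5-fold threshold gave 1 higher and 3 lower for Cavendish against control, 2 and 2 for Fe'i against control, and 4 and 1 for Fe'i against Cavendish, by the construction of that threshold. With a pseudocount of 0.1 the counts were 2 lower for Cavendish against control, 1 higher and 2 lower for Fe'i against control, and 1 lower for Fe'i against Cavendish. With a pseudocount of 5 there were 0 lower for Cavendish against control, where 0.675% of all genes were lower and 1.99% higher. Deposited FPKM and TPM each gave 1 lower for Fe'i against control (abcg2b), where 2.28% and 2.4% of all genes were lower, and TPM 1 higher for Fe'i against Cavendish (abcc12), where 4.93% were higher. The median of the ABC genes for Cavendish against control was -0.066 with deposited FPKM, -0.19 with TPM, -0.074 with TPM without exocrine pancreas and mitochondrial genes, and -0.10 with a minimum of 5 FPKM, against 0.05; for Fe'i against control it was -0.12 with deposited FPKM and -0.13 with TPM. TPM moved the median of all genes for Cavendish against control from 0.02 to -0.19, and beyond that the cause was not tested. Over 4 scalings 9, 2 and 4 of 31 ABC genes turned their sign in the 3 comparisons. Against the control only ratios above 0 could turn, since the other 3 scalings lower the banana levels against it. Low depth limits members under 1 FPKM. No paired analysis was possible because each diet has 1 library, and no library could be left out.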
